A study of Mus musculus with 6 samples.

Results

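The clock output transcription factors are here 7 genes, taken by symbol from the deposited count table: Dbp, Tef, Hlf, Nfil3, Bhlhe40, Bhlhe41 and Ciart. The table lists 24411 genes, of which 12828 passed edgeR's expression filter, and 7 of the 7 clock output genes were among them. They were measured in the soleus (Sol), a slow-dominant hindlimb muscle, from 3 WT and 3 LSD1-mKO mice after voluntary wheel running (VWR), with 1 poly(A) RNA library for each mouse. Sedentary mice were not part of the series. LSD1-mKO mice (C57BL/6 background) carried floxed Lsd1 alleles (Lsd1 flox/flox) and the ACTA1-CreERT2 transgene, whose human ACTA1 promoter is active in differentiating and differentiated muscle cells, so that the other cells of the muscle keep Lsd1. WT mice were Lsd1-floxed without CreERT2. Mice of both genotypes were 8 weeks old when VWR began, lived in single cages with 12 h of light and 12 h of dark, had the wheel for 38 days and, after 3 days of familiarization, received tamoxifen at 75 mg/kg on 5 days. Food was withheld, and the wheel was out of reach, for some hours ahead of dissection. The clock hour of dissection is not given in the sources used here, so a difference in hour between mice cannot be told apart from a difference in genotype.

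In nearly every cell the proteins CLOCK and BMAL1 (the product of Arntl) bind E-boxes, short DNA elements of the form CACGTG, and drive a set of genes whose RNA cycles over the day. Some of these genes feed back on the clock: PER and CRY proteins block CLOCK and BMAL1, and the nuclear receptors REV-ERBα (Nr1d1) and REV-ERBβ (Nr1d2) repress Arntl in competition with the ROR receptors. The clock output transcription factors pass the rhythm on. DBP, TEF and HLF are activators of the PAR bZIP family that bind D-boxes, elements close to TTATGTAA, and NFIL3 (E4BP4) is a bZIP repressor that binds the same elements. BHLHE40 (DEC1) and BHLHE41 (DEC2) are repressors that bind E-boxes, and CIART (CHRONO) is a repressor that acts on the CLOCK and BMAL1 pair itself. In skeletal muscle the clock is known to set the daily rhythm of genes for fuel use.

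Of these 7 genes, 0 passed the adjusted threshold when LSD1-mKO Sol was set against WT Sol. Nfil3 had the largest difference of the 7, with a LSD1-mKO mean of 42.0% of the WT mean, but 1 WT mouse had a Nfil3 level within the LSD1-mKO range. Dbp, Tef, Hlf, Bhlhe40, Bhlhe41 and Ciart had LSD1-mKO means from 89.5% to 111% of WT, and their ranges overlapped. The fitted difference of 3 of the 7 was above 0 and that of 4 below, with a median log2 fold change of -0.06 (range -1.25 to 0.15), beside a median of -0.02 over all genes tested. Without WT replicate 2 that median over the 7 genes was 0.18, and without WT replicate 1 it was -0.14.

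Estimated counts per gene were scaled with edgeR's TMM factors to counts per 1000000 (CPM), and LSD1-mKO was tested against WT by the quasi-likelihood method of edgeR, with Benjamini-Hochberg adjustment over the 12828 genes and a threshold of 0.05. Totals per library ran from 8940206 to 10989846 estimated counts in WT and from 10984664 to 13798059 in LSD1-mKO. WT replicate 1 had the lowest total and the fewest genes detected (15693, against 16037 or more in the other mice). Kdm1a, the gene of LSD1, lay between 33.6 and 40.5 CPM in the WT mice and between 14.6 and 16.6 CPM in the LSD1-mKO mice, 42.6% of the WT mean. At adjusted p, 1 gene was called higher in LSD1-mKO and 1 lower, which is 0.0078% and 0.0078% of the genes tested. Counted at unadjusted p under the same threshold, 3.52% of the genes were higher and 2.88% lower. The 3 LSD1-mKO mice lay above the 3 WT mice without overlap in 6.63% of the genes and below them in 6.1%. Of the 7 clock output genes, 1 was lower and 0 were higher at unadjusted p, and 0 did not overlap. At this number of mice an exact permutation test, 2-sided, over the 10 splits cannot give a p under 0.1, and it gave 0.2 to 0.9 for the members other than Nfil3. The 9 muscle fiber markers together reached 119303 to 131628 TPM in WT and 120474 to 131460 in LSD1-mKO, and 0 of the 9 was at 0.

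The promoters of the members differ in how many CACGTG E-boxes they hold. RefSeq promoters (GRCm38.p6) were given for 6 of the 7 genes, with 2 for Tef. Bhlhe40 had no promoter entry and was not searched. Distances are counted from the RefSeq start, whereas the gene positions given below are those of GENCODE, whose starts can differ. In the 250 bases before the start, CACGTG was present in 6.02% of the 32851 promoters searched (both strands, and the element reads the same on each), and 3 or more copies were present in 20 promoters, or 0.0609%. Ciart is among those 20, with copies that begin 116, 58 and 44 bases before the start. Each of the 2 Tef promoters held 1 copy, beginning 127 and 138 bases before the start, and Bhlhe41 held 1, beginning 153 bases before the start. Dbp, Hlf and Nfil3 held 0 copies in this window. For Dbp the window runs from 45704997 to 45705246, and the GENCODE gene begins at 45705088. Part of that window thus lies inside the gene as GENCODE places it. E-boxes outside the windows were not searched. The stretches shown run from 25 bases before the first E-box to 25 bases past the last, cut short where an annotated exon begins. They hold CACGTG, the form of element that CLOCK and BMAL1 bind. E-boxes are in capitals, and the gene's strand is read 5′ to 3′. For Tef the second promoter is shown, and the 56 bases around the E-box of the first lie in annotated exons.
Ciart, chr3:95882252-95882369, minus strand: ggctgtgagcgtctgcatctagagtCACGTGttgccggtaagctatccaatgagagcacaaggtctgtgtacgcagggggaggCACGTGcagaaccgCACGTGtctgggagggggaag
Tef, chr15:81811251-81811306, plus strand: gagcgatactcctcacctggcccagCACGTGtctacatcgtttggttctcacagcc
Bhlhe41, chr6:145865559-145865598, minus strand: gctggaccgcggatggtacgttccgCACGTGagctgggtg
The E-box variant CACGTT (3.85% of promoters) and the D-box forms TTATGTAA (0.819%) and TTACGTAA (0.113%) were in 0 of the 7 promoters searched. These 7 include 2 of Tef and leave out Bhlhe40. AGGTCA, the core that REV-ERB and ROR receptors bind, was found in 14% of promoters. Among the members searched it was in that of Nfil3 alone, 12 bases before the RefSeq start on the reverse strand. The window searched for Nfil3 begins at 52981040 and the GENCODE gene reaches 52981073, so this match lies inside the gene as GENCODE places it. A match is a description of the letters in these windows, and binding was not measured.

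Dbp (GRCm38 chr7:45705088-45710203, plus strand), the PAR bZIP activator that is known for a steep daily rhythm in many tissues, had the highest level per length of the 7. Its level was 204, 299 and 215 CPM in WT replicates 1 to 3 and 192, 237 and 213 CPM in LSD1-mKO replicates 1 to 3. WT replicate 2 was the highest and LSD1-mKO replicate 1 the lowest, and LSD1-mKO replicate 2 lay above the other WT mice, so that the groups overlapped. The means were 239 ± 51.8 CPM in WT and 214 ± 22.5 CPM in LSD1-mKO (SD, n = 3 each), and the log2 fold change was -0.16 (standard error 0.15, 95% confidence interval -0.52 to 0.19, edgeR adjusted p = 0.868). Without WT replicate 2 the log2 fold change was 0.032, so the sign of this small difference depended on that mouse.

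Tef (chr15:81802421-81826863, plus strand) encodes the PAR bZIP activator whose RNA is known to cycle less than that of Dbp. Its level was 403, 395 and 371 CPM in WT and 326, 394 and 345 CPM in LSD1-mKO, in replicate order. LSD1-mKO replicates 1 and 3 lay below every WT mouse, and LSD1-mKO replicate 2 was level with WT replicate 2. The means were 390 ± 16.8 and 355 ± 35.3 CPM, a log2 fold change of -0.13 (standard error 0.10, interval -0.36 to 0.10, edgeR adjusted p = 0.824). Tef was the only member other than Nfil3 whose difference kept its sign whichever of the 6 mice was left out, with log2 fold changes between -0.21 and -0.07.

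Hlf (chr11:90336536-90390895, minus strand), the third PAR bZIP activator, was measured at 23.4, 41.9 and 31.0 CPM in WT and 29.9, 31.7 and 31.2 CPM in LSD1-mKO. The LSD1-mKO mice lay close together, while WT replicate 1 was below them and WT replicate 2 above. The highest level was 1.79 times the lowest in WT and 1.06 times in LSD1-mKO. The means were 32.1 ± 9.29 and 30.9 ± 0.935 CPM, with a log2 fold change of -0.06 (standard error 0.18, interval -0.48 to 0.36, edgeR adjusted p = 0.959). It was 0.18 without WT replicate 2 and -0.23 without WT replicate 1.

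Nfil3 (chr13:52967209-52981073, minus strand) encodes the repressor that faces these activators at D-boxes. Its level was 76.8, 22.3 and 56.5 CPM in WT and 16.9, 23.0 and 25.4 CPM in LSD1-mKO. WT replicates 1 and 3 stood far above the other 4 mice, whereas WT replicate 2 lay between LSD1-mKO replicates 1 and 2. The means were 51.9 ± 27.5 CPM in WT and 21.8 ± 4.37 CPM in LSD1-mKO. The log2 fold change was -1.25 (standard error 0.38, interval -2.13 to -0.37), with an edgeR unadjusted p of 0.0112 and an adjusted p of 0.619. Nfil3 therefore did not pass the threshold over all genes, and the exact permutation test of its CPM, 2-sided, gave p = 0.3. Without WT replicate 2 the log2 fold change was -1.61 (edgeR adjusted p = 0.129), and without WT replicate 1 it was -0.86. Over all the alternative fits the adjusted p ran from 0.129 to 0.998.

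Bhlhe40 (chr6:108660629-108666925, plus strand), the E-box repressor DEC1, was measured at 61.8, 105 and 95.9 CPM in WT and 135, 86.2 and 65.7 CPM in LSD1-mKO. LSD1-mKO replicate 1 had the highest level and WT replicate 1 the lowest, with the other 4 mice mixed between them. The means were 87.6 ± 22.7 and 95.8 ± 35.8 CPM, a log2 fold change of 0.13 (standard error 0.27, interval -0.50 to 0.76, edgeR adjusted p = 0.943). It was -0.20 without LSD1-mKO replicate 1 and 0.34 without LSD1-mKO replicate 3.

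Bhlhe41 (chr6:145858243-145865558, minus strand) encodes DEC2, the closest relative of DEC1. It was measured at 34.6, 82.5 and 59.2 CPM in WT and 65.2, 62.6 and 64.8 CPM in LSD1-mKO. As with Hlf, the LSD1-mKO mice lay close together and WT replicates 1 and 2 lay on either side of them. The highest level was 2.38 times the lowest in WT and 1.04 times in LSD1-mKO, and the means were 58.7 ± 23.9 and 64.2 ± 1.39 CPM. A wider spread in WT was not particular to these genes. The fibroblast marker Pdgfra had it too (3.01 times in WT and 1.43 in LSD1-mKO). Among the muscle fiber markers, Acta1 (1.27 and 1.12 times), Ckm (1.23 and 1.09), Mb (1.34 and 1.06) and Myh2 (1.48 and 1.35) had it. Myl2 and Tnnt1 were nearly equal, and Tnnc1 (1.14 and 1.45), Myh7 (1.26 and 1.29) and Tnni1 (1.35 and 1.38) did not have it. The log2 fold change was 0.12 (standard error 0.25, interval -0.46 to 0.70, edgeR adjusted p = 0.942), -0.14 without WT replicate 1 and 0.45 without WT replicate 2.

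Ciart (chr3:95878503-95882251, minus strand), whose product CHRONO represses CLOCK and BMAL1, was measured at 18.0, 17.8 and 15.0 CPM in WT and 20.4, 12.9 and 23.2 CPM in LSD1-mKO. LSD1-mKO replicates 1 and 3 lay above the WT mice and LSD1-mKO replicate 2 below them. Here the spread was wider in LSD1-mKO, where the highest level was 1.80 times the lowest, than in WT, where it was 1.20 times. The means were 16.9 ± 1.66 and 18.8 ± 5.33 CPM, a log2 fold change of 0.15 (standard error 0.21, interval -0.33 to 0.63, edgeR adjusted p = 0.908). It was -0.022 without LSD1-mKO replicate 3 and 0.37 without LSD1-mKO replicate 2, the latter with an unadjusted p of 0.0288 in edgeR. For the 6 members other than Nfil3, these intervals together span -0.52 to 0.76 on the log2 scale, and a p above the threshold does not show equal levels.

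**Figure D1:**
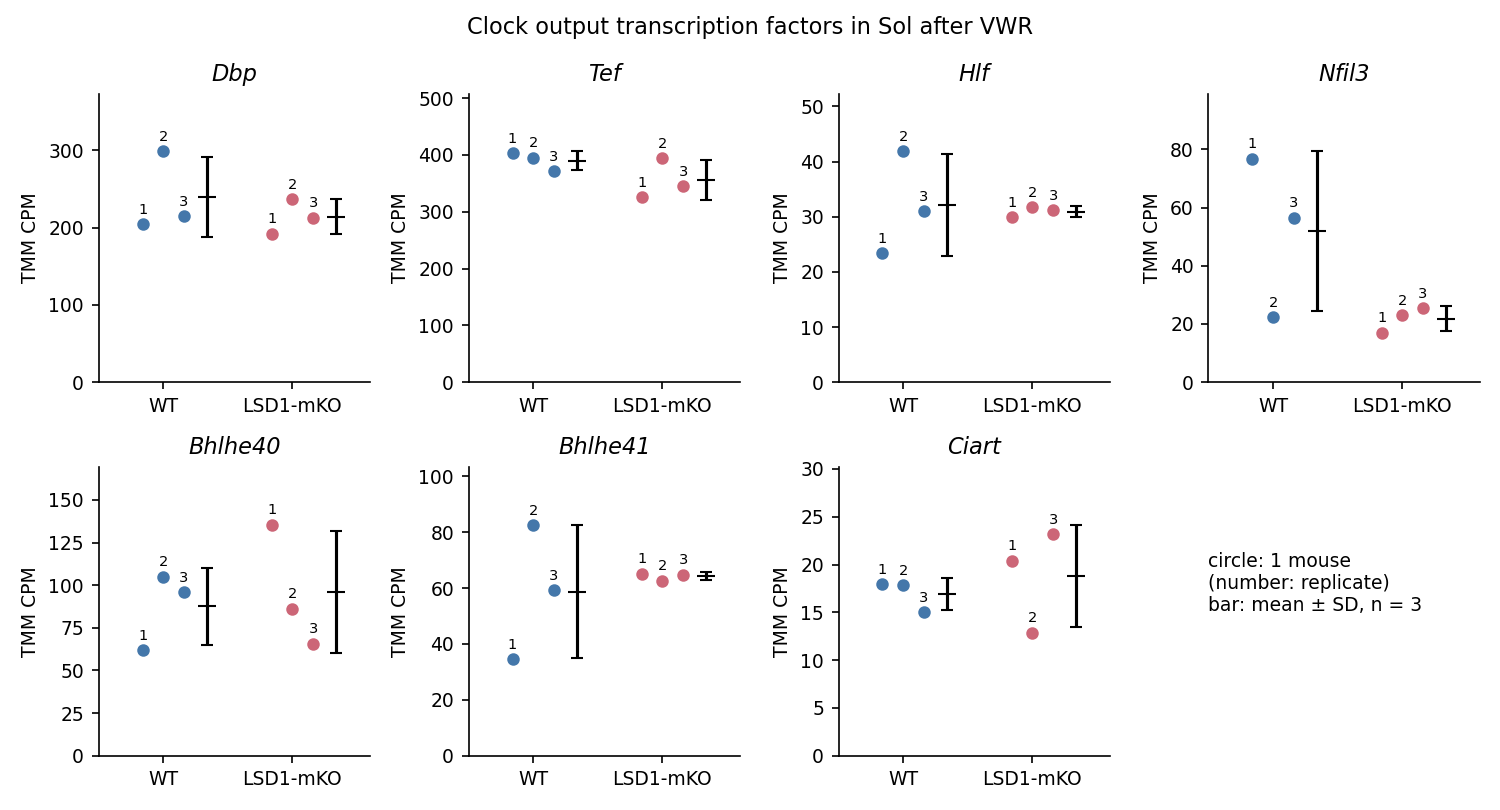
TMM-normalized level (CPM, linear axis from 0) of each clock output transcription factor in Sol after VWR, with 1 circle per mouse numbered by replicate, and bars for the mean ± SD of 3 mice per genotype. Nfil3 is high in WT replicates 1 and 3 (76.8 and 56.5 CPM) and between 16.9 and 25.4 CPM in the other 4 mice, while Hlf and Bhlhe41 spread widely in WT and narrowly in LSD1-mKO.

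Levels of different genes were compared per length, as transcripts per 1000000 (TPM), for which the length of a gene was that of its longest protein-coding transcript. The mean over the 6 mice was 275 TPM for Dbp, 187 for Tef, 65.6 for Bhlhe40, 39.6 for Nfil3, 22.4 for Bhlhe41, 20.4 for Ciart and 12.5 for Hlf. Dbp ranged from 227 to 387 TPM and Tef from 162 to 213 TPM, so these neighbours in the order did not overlap over the mice. Bhlhe40 ranged from 40.6 to 95.4 TPM and Nfil3 from 18.3 to 77.5 TPM, and these ranges overlapped, as did those of every later pair of neighbours. Bhlhe41 lay between 11.5 and 32.0 TPM, Ciart between 14.7 and 26.5 TPM and Hlf between 8.47 and 17.6 TPM. With the mean transcript length in place of the longest, Dbp and Tef came to nearly equal means, 264 and 261 TPM, and the order of Nfil3, Bhlhe41 and Ciart turned to Ciart (30.9), Bhlhe41 (29.5) and Nfil3 (29.3). The lead of Dbp over Tef thus rests on the transcript chosen, and so does the middle of the order.

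At D-boxes 3 activators meet 1 repressor, so their summed level was set beside that of Nfil3 in each mouse. Dbp, Tef and Hlf together reached 423, 618 and 466 TPM in WT replicates 1 to 3 and 403, 496 and 443 TPM in LSD1-mKO replicates 1 to 3. Their sum differed little between the genotypes, with WT replicate 2 the highest. Divided by the TPM of Nfil3, the sum was 5.46, 23.6 and 7.41 in WT and 22.0, 19.7 and 15.9 in LSD1-mKO. The ratio was thus low in WT replicates 1 and 3 and higher in the other 4 mice, with the highest value of all in WT replicate 2. The medians were 7.41 and 19.7, a description of these mice with no test, and RNA levels do not give the amounts of protein at a D-box.

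**Figure D2:**
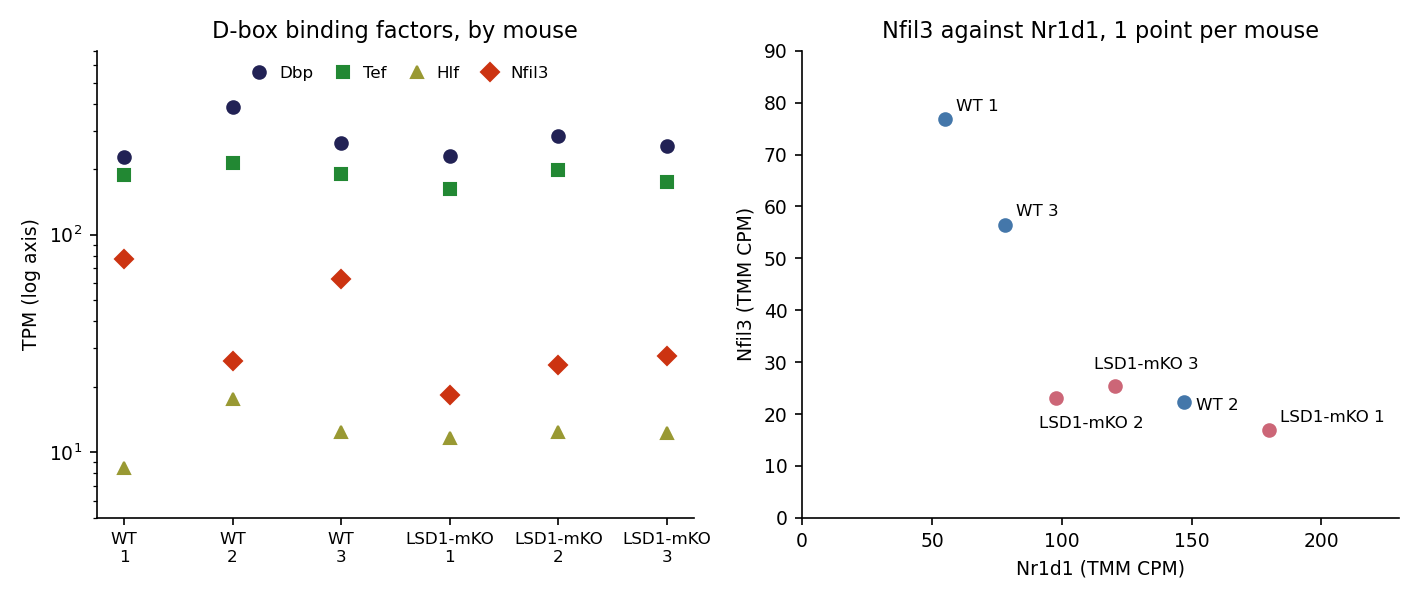
Left, TPM (log axis) of the activators Dbp, Tef and Hlf and the repressor Nfil3 in each mouse, and right, Nfil3 against Nr1d1 in TMM CPM with 1 point per mouse. Nfil3 stands apart in WT replicates 1 and 3, which also have the lowest Nr1d1 levels (55.2 and 78.3 CPM), while the activators stay within 403 to 618 TPM in sum.

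The members did not vary in step over the 6 mice. Correlations are given on log2 CPM as a description, over 6 points that share library, depth and genotype. Hlf and Dbp, both PAR bZIP activators, varied together, with a Pearson r of 0.82 and a Spearman rho of 0.89, and r was 0.68 without the 2 mice farthest from the median of Dbp. Hlf and Bhlhe41 had an r of 0.93 (rho 0.60), but without the 2 mice farthest from the median of Hlf it was -0.37, so that this relation rests on WT replicates 1 and 2. Nfil3 and Bhlhe41 had an r of -0.80 (rho -0.89), which was -0.92 without the 2 mice farthest from the median of Bhlhe41 but 0.05 without the 2 farthest from the median of Nfil3, so that it rests on those mice. Tef was unrelated to Hlf (r 0.01), and Ciart had an r of -0.06 with Hlf and 0.05 with Bhlhe41.

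With the core clock, the relations of largest size were those of Nfil3 and Tef. Nfil3 is known as a gene that REV-ERBα represses and RORα activates. Its r with Nr1d1, the gene of REV-ERBα, was -0.93 (rho -0.94), it was -0.94 on deviations from each genotype's mean, and it was -0.80 without the 2 mice farthest from the median of Nr1d1. With Rora, the gene of RORα, r was 0.93 (rho 0.94), and it was 0.97 without the 2 mice farthest from the median of Rora. Both of these subsets keep WT replicate 3, which was high in Nfil3. For these pairs the 2 mice farthest from the median of Nfil3 were not left out. Nr1d1 was measured at 55.2, 147 and 78.3 CPM in WT and 180, 97.6 and 121 CPM in LSD1-mKO, so the 2 WT mice with high Nfil3 had the lowest Nr1d1 of the 6. Rora was measured at 130, 78.6 and 111 CPM in WT and 83.8, 95.3 and 96.8 CPM in LSD1-mKO, and the same 2 mice had the highest Rora. Nfil3 also had an r of 0.90 with Per1, 0.87 with Cry2 and -0.87 with Arntl. Without the 2 mice farthest from the median of the clock gene, these were 0.22, 0.82 and -0.30. Whether REV-ERBα or RORα had a part in the Nfil3 levels was not tested. Bhlhe41 followed Nr1d1 (r 0.83, rho 0.94, and 0.90 without the 2 farthest mice) and ran against Rora (r -0.91, rho -0.94, and -0.88). Tef ran with Per2 (r 0.92, rho 0.83, and 0.78 without the 2 mice farthest from the median of Per2) and against Clock (r -0.92, rho -0.94, and -0.97). Among core clock genes Dbp had its highest r with Per3 (0.84, rho 0.89), which was 0.19 without the 2 mice farthest from the median of Per3 and so rests on those mice.

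Among the 10210 genes compared, those tested that averaged at least 5 CPM, the 3 with the pattern most like each member were named by rule. For Nfil3 these were Rsf1, Ubn2 and Acsl3 (r of 0.99, 0.98 and 0.98). For Dbp they were Eogt, Plod3 and Ushbp1 (0.98, 0.97 and 0.97), for Tef Taf4a, Gpn3 and Abcc1 (1.00, 0.99 and 0.99), and for Hlf Klhl5, Gab2 and Pip5k1c (0.99, 0.99 and 0.98). For Bhlhe40 they were 2310022B05Rik, Dlg5 and Scd2 (0.99 each), for Bhlhe41 Slc39a10, Smurf2 and Tusc5 (1.00, 0.99 and 0.99), and for Ciart Rbm48, Dicer1 and F8a (0.99, 0.99 and 0.98). Between 9 and 44 of the 10210 genes had an r above 0.95 with a member, so that an r of this size was not particular to the 3 genes named. No core clock gene and no other member was among the 3 most like any member.

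The rest of the clock and its targets were read from 7 lists that hold genes by role, of which 0 genes passed the adjusted threshold. Over all genes tested, 5801 were fitted higher and 7027 lower. At unadjusted p 3.52% were higher and 2.88% lower, and without overlap 6.63% and 6.1%. Among the 7 activators of the clock, 5 were tested, of which 4 were fitted higher and 1 lower, with a median of 0.26 on the log2 scale, and 1 was higher at unadjusted p. This was Arntl, whose product is the partner of CLOCK, at 2.77, 4.41 and 3.38 CPM in WT and 9.17, 7.17 and 8.38 CPM in LSD1-mKO. Every LSD1-mKO mouse lay above every WT mouse, and the log2 fold change of 1.21 (standard error 0.21) had an edgeR unadjusted p of 4.1e-04 and an adjusted p of 0.269. Over the alternative fits its adjusted p ran from 0.0085 with DESeq2, the only one under the threshold, to 0.998 without LSD1-mKO replicate 3. Without LSD1-mKO replicate 2 the median of the 5 activators was 0.13, and without it, WT replicate 1 or WT replicate 2 the number at unadjusted p was 2. Tef, Bhlhe41 and Ciart, whose promoters hold CACGTG, overlapped, and a difference between Arntl and these genes was not tested.

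Of the 7 clock repressors, 1 was fitted higher and 6 lower, with a median of -0.16 on the log2 scale, and 2 were lower at unadjusted p. These were the period genes Per1 (log2 fold change -0.36, edgeR adjusted p = 0.665) and Per3 (log2 fold change -0.37, edgeR adjusted p = 0.766). The number at unadjusted p was 0 without WT replicate 3 and 1 without LSD1-mKO replicate 1 or 3. With all mice kept, it was 1 with DESeq2 size factors in edgeR or with library size alone. These calls thus depended on single mice and on the normalization. In CPM, Per1, Cry1 and Cry2 were lower in each LSD1-mKO mouse than in each WT mouse, with means at 78.1%, 89.6% and 90.7% of WT. The gap was small for Per1 (111.3 CPM in WT replicate 2, 111.0 in LSD1-mKO replicate 3). It was also small for Cry1 (20.1 CPM in WT replicate 2, 19.9 in LSD1-mKO replicate 2). In TPM Cry1 overlapped, at 13.6 in WT replicate 1 and 14.5 in LSD1-mKO replicate 2. Nr1d1 was fitted higher at 0.50 and overlapped. Of the 10 kinases and ubiquitin ligases tested, which set the pace at which PER and CRY are removed, 7 were fitted higher and 3 lower, and 2 were higher at unadjusted p, Gsk3b at 0.22 and Prkaa1 at 0.24 on the log2 scale, with a median over the 10 of 0.07. This number was 0 without WT replicate 3 or LSD1-mKO replicate 3, 1 without WT replicate 2 or LSD1-mKO replicate 1 and 4 without WT replicate 1, where the median was 0.14. With all mice kept, the number was 1 with DESeq2 or with library size alone in edgeR.

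**Figure D3:**
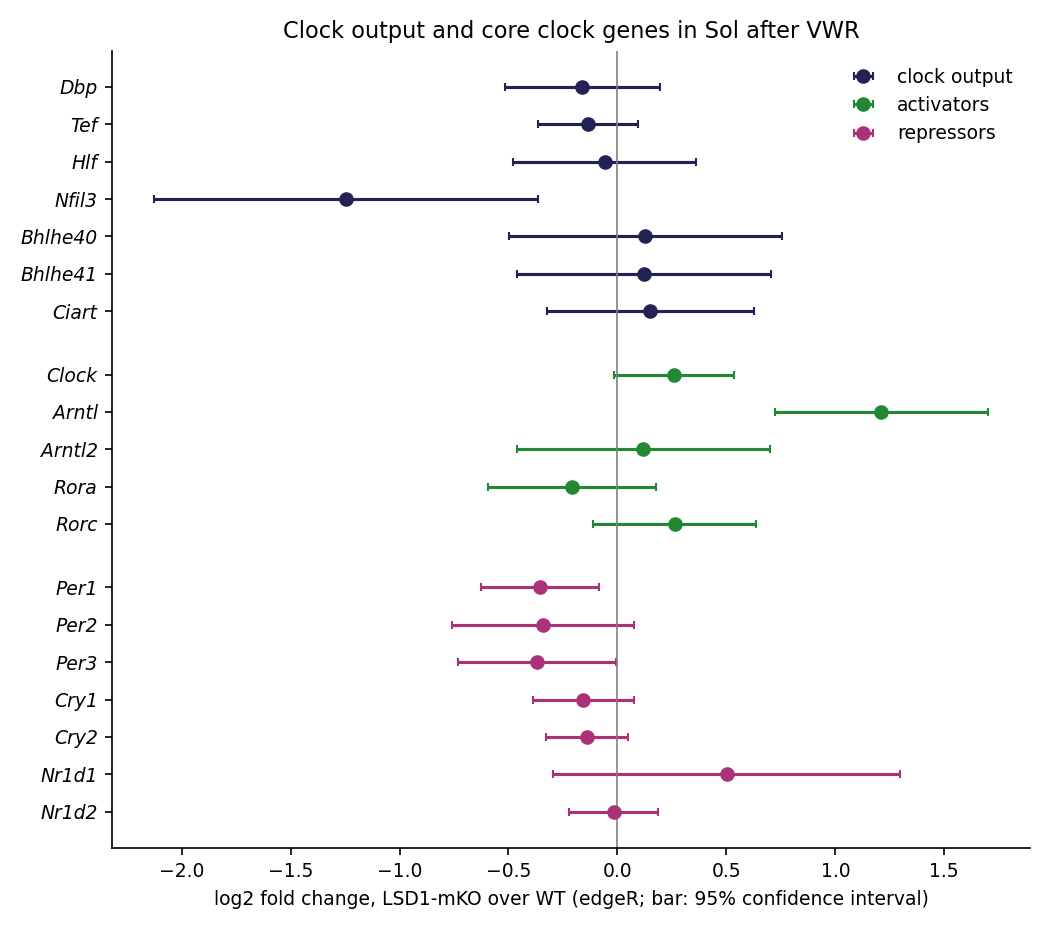
Log2 fold change of LSD1-mKO over WT with its 95% confidence interval (edgeR) for the 7 clock output transcription factors, the 5 activators tested and the 7 repressors, 1 point per gene. The intervals of Nfil3 (-2.13 to -0.37), Arntl, Per1 and Per3 lie off 0, and those of the other clock output genes include it.

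Downstream of the members, 8 rhythmic output genes that include targets of the PAR bZIP factors were tested. All 8 were fitted lower (7027 of 12828 over all genes tested), with a median log2 fold change of -0.24. Of these 3 were lower at unadjusted p and did not overlap, beside 2.88% and 6.1% over all genes tested. Tsc22d3, a glucocorticoid-induced regulator, was at 386, 325 and 423 CPM in WT and 244, 278 and 307 CPM in LSD1-mKO (log2 fold change -0.45, edgeR adjusted p = 0.578). Tspan4, a tetraspanin, stood at -0.25 and Pdxk, the pyridoxal kinase and a known target of the PAR bZIP factors, at -0.27 on the same scale. The other known PAR bZIP targets Por and Alas1, which serve heme enzymes, were fitted at -0.15 and -0.06 and overlapped. The number at unadjusted p was 1 with DESeq2 and 1 without WT replicate 2. It was 2 without any other single mouse and with the replicate number as a block, so it depended on the test and on each mouse.

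Of the 9 muscle genes listed as clock targets, 4 were fitted higher and 5 lower, with a median near 0 (-0.003), and 1 was lower at unadjusted p. This was Tbc1d1, a regulator of glucose transporter traffic, at 79.4, 41.5 and 80.0 CPM in WT and 41.4, 35.8 and 36.0 CPM in LSD1-mKO (log2 fold change -0.83, edgeR adjusted p = 0.578). Without WT replicate 1 the number of these genes at unadjusted p was 3, and without LSD1-mKO replicate 2 it was 2. The Tbc1d1 groups were separated only by the small gap between WT replicate 2 and LSD1-mKO replicate 1. Pdk4, the kinase that turns down pyruvate oxidation, was fitted at 0.39 and overlapped, and Slc2a4, the insulin-sensitive glucose transporter, was at 99.8% of its WT mean.

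Some genes of 2 further lists stood high in the same WT mice as Nfil3, and others did not. Of the 9 other C/EBP and bZIP genes, 3 were fitted higher and 6 lower (median -0.03), and 1 was lower at unadjusted p. This was Cebpd, a stress-induced C/EBP factor, at 145, 64.3 and 118 CPM in WT and 54.3, 51.8 and 67.9 CPM in LSD1-mKO. The number at unadjusted p was 2 without WT replicate 2 or LSD1-mKO replicate 2. Of the 10 immediate early genes tested, which many cells switch on within minutes of a stimulus, 10 were fitted lower (7027 of 12828 over all genes tested). Their median was -0.40 on the log2 scale, and 4 were lower at unadjusted p (2.88% over all genes tested), namely Fos, Jun, Btg2 and Nr4a1. Without LSD1-mKO replicate 1 the median was -0.72, and without WT replicate 3 the number was 2. It was also 2 with limma voom on all mice. Fos was at 28.8, 6.03 and 24.6 CPM in WT and 6.07, 2.68 and 6.61 CPM in LSD1-mKO, so that WT replicate 2 lay within the LSD1-mKO range here too. Btg2, an antiproliferative gene of this class, was at 132, 87.0 and 226 CPM in WT and 56.0, 54.1 and 63.2 CPM in LSD1-mKO, without overlap (log2 fold change -1.36, edgeR adjusted p = 0.377). Junb (10.7, 21.2 and 31.7 CPM in WT), Egr1 (6.87, 11.3 and 11.3 CPM) and Ier2 (9.64, 12.4 and 13.4 CPM) had their lowest WT level in WT replicate 1, unlike Nfil3. Whether what set these genes apart in WT replicates 1 and 3 had a part in the Nfil3 difference was not tested.

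**Figure D4:**
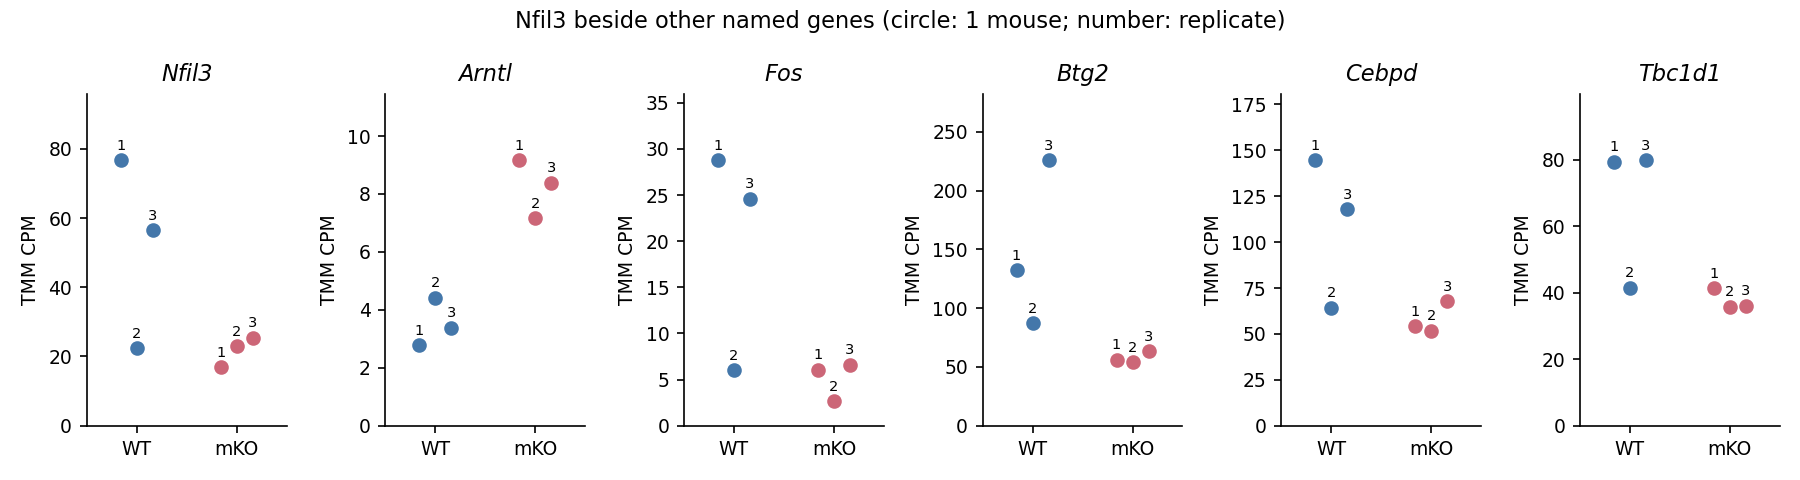
TMM CPM (linear axes from 0) of Nfil3, Arntl, Fos, Btg2, Cebpd and Tbc1d1, with 1 circle per mouse numbered by replicate. In Nfil3, Fos, Cebpd and Tbc1d1 WT replicate 2 lies at or near the LSD1-mKO mice and WT replicates 1 and 3 lie above them, whereas Arntl puts each LSD1-mKO mouse (7.17 to 9.17 CPM) above each WT mouse (2.77 to 4.41 CPM).

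Markers of other cells also differed between the mice, mostly within WT. The 5 fibroblast markers summed to 675 to 2007 TPM in WT and 1000 to 1434 TPM in LSD1-mKO, and the 5 immune markers to 94.4 to 373 TPM and 102 to 177 TPM. The lowest sum of each list was that of WT replicate 1, the mouse with the highest Nfil3 and the lowest Hlf, Bhlhe40 and Bhlhe41, whereas WT replicate 3, also high in Nfil3, had the highest fibroblast sum. The red blood cell markers ran from 705 to 2198 TPM in WT and 987 to 1453 TPM in LSD1-mKO, with the highest sum in WT replicate 2. Of these 5 markers, 4 were fitted lower and 1 higher, Hba-a1 (log2 fold change 3.95, edgeR adjusted p = 0.684). Hba-a1 was at 13.5, 5.76 and 0 CPM in WT and 2.59, 78.0 and 202 CPM in LSD1-mKO, and overlapped. Endothelial markers summed to 214 to 363 TPM in WT and 249 to 292 TPM in LSD1-mKO, adipocyte markers to 242 to 413 and 286 to 365 TPM, and Schwann cell markers to 125 to 160 and 131 to 153 TPM. Smooth muscle markers summed to 4356 to 4849 TPM in WT and 4174 to 4320 TPM in LSD1-mKO. Nearly all of that sum was Des, the desmin gene, which muscle fibers also express (4141 to 4602 TPM in WT and 3982 to 4102 in LSD1-mKO), and the next 2 markers by level, Acta2 (87.6 to 105 and 80.3 to 120 TPM) and Tagln (81.0 to 103 and 74.8 to 103 TPM), overlapped. Satellite cell markers summed to 9.16 to 15.6 TPM in WT and 10.5 to 17.3 TPM in LSD1-mKO. In these lists 0 markers were at 0 in all mice, and the part of the cell makeup in the levels of the clock output genes was not tested. In whole muscle, fewer cells of a type and less RNA per cell cannot be told apart.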

How the data were processed

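Poly(A) RNA from the Sol of 3 LSD1-mKO and 3 WT mice was read as 75-base single-end reads and aligned by the authors to mm10 with STAR. The deposited table holds estimated counts per gene without normalization, 8.33% to 9.94% of them not whole. The counting tool and annotation are not given in the sources used here. A deposited DESeq2 table of the authors' own fold changes and p-values was not used. Columns were matched to mice by the number in their heading, which opens the sample title.

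Estimated counts were rounded and fitted with edgeR 4.0.16 (TMM, filterByExpr by genotype, quasi-likelihood, Benjamini-Hochberg adjustment over 12828 genes, threshold 0.05) in R 4.3.3. DESeq2 1.42.0 and limma 3.58.1 (voom), other normalizations and filters, the replicate number as a block and each mouse left out in turn were alternatives. Single genes were compared by an exact permutation test over 10 splits. With totals of 8940206 to 13798059, 3 counts correspond to 0.217 to 0.362 CPM, a floor that covers counting error only. Lengths for TPM were those of each gene's longest protein-coding transcript (GENCODE vM21), for which 23350 symbols matched directly, 677 through older symbols and 384 not at all. Promoters are RefSeq's, of which the 250 bases before the start were searched. The fits were tested on simulated data. Replicates are separate mice. Named were the members, Kdm1a, the genes of the pathway lists and the 3 genes most like each member over the mice, by Pearson r of log2 CPM (prior count 2). The members and lists were chosen with earlier results of these data known.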

Additional observations from a re-analysis of the deposited data

How the results depend on the processing

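Of 98 refits of the 7 clock output genes, 92 kept direction and side of the adjusted threshold and 6 turned direction, each upon the loss of 1 mouse. Over these losses the log2 fold change ran from -0.20 to 0.34 for Bhlhe40, from -0.14 to 0.45 for Bhlhe41, from -0.26 to 0.032 for Dbp, from -0.23 to 0.18 for Hlf and from -0.022 to 0.37 for Ciart. The median over the 7 genes ran from -0.14 to 0.18, and the number higher at unadjusted p from 0 to 1. At adjusted p, DESeq2 called 33 genes higher and 9 lower, voom 2 higher, the fit without a filter on low counts 8 higher and 3 lower, and leaving out 1 mouse 1 to 2 higher (2 without WT replicate 1) and 0 to 1 lower (0 without WT replicate 2 or any LSD1-mKO mouse, where Kdm1a was no longer called). At unadjusted p, DESeq2 gave 228 lower, and leaving out 1 mouse gave 272 to 841 higher and 222 to 1044 lower, the highest of each without WT replicate 1. In the replicate block fit, 0 genes were lower at adjusted p, Kdm1a included, and 228 at unadjusted p, and the number at unadjusted p was 0 among the clock kinases and ubiquitin ligases and 3 among the muscle clock targets. Deviations of same-numbered mice had correlations of -0.35, -0.11 and -0.15, so no pairing by number was seen. At 3 mice per genotype this check cannot exclude a weak one. The cause was not tested in any of these cases. Leaving 1 genotype with 2 mice, these fits share the spread over both genotypes. The lowest member value, 12.9 CPM, lay well above the floor of 0.217 to 0.362 CPM, so depth did not limit detection of the members.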
